A study of Mus musculus with 6 samples.

Results

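Sox genes encode transcription factors that bind DNA through a high-mobility-group (HMG) box, and different members are used to keep progenitors, to commit cells to a fate and to mark lineages. In teeth, *Sox2* is best known as a marker of the epithelial stem cells of the cervical loop, *Sox21* as a factor that holds dental epithelium on the ameloblast path, and *Sox9* as a gene of the outer epithelium and of cartilage. *Sox4* and *Sox11* act in progenitors of many tissues, *Sox5*, *Sox6* and *Sox13* form a group without a strong activation domain of their own, and *Sox17* and *Sox18* are used by endothelial cells.

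The 10 genes described here were chosen by name, as Sox genes with known roles in dental epithelium, mesenchyme or endothelium, out of the 20 Sox family genes (the *Sry* gene included) among 55487 genes of the deposited table. All 10 were listed, and 9 had a mean of at least 1 TPM over all libraries and were tested; *Sox2* did not reach that level. Epithelium was taken from lower first molars at PN2.5 (postnatal day 2.5) and sequenced as RNA. The control group has 3 libraries of *Wnt10a* fl/fl animals, the cKO group 3 libraries of *K14-Cre;Wnt10a* fl/fl animals, and each library was made from tissue pooled over several molars, 4 per the design text deposited with the series, while the study's methods give another number. Both groups carry the floxed *Wnt10a* alleles, and only the cKO mice carry Cre, driven in epithelial cells by the keratin 14 promoter, so that an effect of Cre itself and an effect of the deletion cannot be told apart. The design text calls the 3 libraries of a group biological replicates. The study's methods speak of 3 pairs of replicates and do not say which libraries form a pair.

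The values are in TPM, a level that is corrected for transcript length and sums to nearly the same total in each library (983952 to 993946), so genes can be compared with each other but the sequencing depth is unknown. Tests were made by limma on log2(TPM + 1) over 13719 genes, a scale that understates the change of genes with a low level. *Wnt10a*, the targeted gene, was at 56.0, 51.2 and 57.9 TPM in control, against 22.7, 21.8 and 32.2 TPM in cKO, without overlap and in the direction of the labels. Its unadjusted p from limma was 0.000653, and its adjusted p (Benjamini-Hochberg over all genes) was 0.747. The adjusted threshold of 0.05 used below therefore missed the targeted gene as well.

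The tissue label was compared with marker genes. The keratins of the dental epithelium were abundant, with *Krt5* at 1945 to 3713 TPM and *Krt14* at 2190 to 2773 TPM, and the enamel gene *Amelx* took 8.65% to 20.6% of all TPM. Genes of other cells were present as well, since the 12 mesenchymal markers summed to 3279 to 5993 TPM, with *Col1a1* as the most abundant, and the odontoblast gene *Dspp* was at 352 to 1302 TPM. Endothelial markers summed to 149 to 240 TPM, and the 7 skeletal muscle markers to no more than 2.06 TPM. The libraries are therefore mixtures in which epithelial transcripts dominate, and in such bulk samples fewer cells of a type and less RNA per cell cannot be told apart.

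Libraries of the same group differed. Control replicate 3 and cKO replicate 3 had the fewest genes above 0, 20722 and 20185, against 21686 to 23203 in the other libraries, and had the lowest levels of the mesenchymal matrix genes *Postn* (10.3 and 10.1 TPM, against 27.3 to 52.0 TPM) and *Lum* (23.9 and 30.6 TPM, against 61.0 to 108 TPM). The more abundant *Col1a1* did not share this pattern, at 1795 TPM in control replicate 3 but 2444 TPM in cKO replicate 3, the second highest of the 6 libraries. In cKO replicate 2, *Amelx* took 8.65% of all TPM, the smallest share. The summed rRNA was 1363, 3283 and 2032 TPM in the control libraries, against 16291, 12080 and 8400 TPM in cKO libraries. These differences are given beside the Sox results below, and their part in the results was not tested.

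The sequences that mark these genes as relatives are the codons at the start of the conserved core of the HMG box. They are shown because the family is defined by its HMG box. The 27 bases (9 codons) were read from the coding strand of GENCODE transcripts of GRCm38, 5′ to 3′, and capitals mark bases that differ from the most frequent base of the 10 genes at that position.
Sox2: AggcccatgaacgccttcatggtAtgg
Sox21: cggcccatgaacgccttcatggtgtgg
Sox4: cggcccatgaacgccttTatggtgtgg
Sox11: cggcccatgaacgccttcatggtgtgg
Sox5: cgTccAatgaaTgccttcatggtgtgg
Sox6: cgAccAatgaaTgcGttcatggtTtgg
Sox13: AgAcccatgaaTgccttcatggtgtgg
Sox9: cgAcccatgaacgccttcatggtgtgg
Sox17: cggccGatgaacgccttTatggtgtgg
Sox18: cggcccatgaacgccttcatggtgtgg

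*Sox11*, *Sox18* and *Sox21* carry the same 27 bases, and *Sox6* differs from the most frequent bases at 5 positions. Over the 210 bases that begin with this core, *Sox4* and *Sox11* (subgroup C) were the most alike, with 91.0% identical bases, followed by *Sox2* and *Sox21* (subgroups B1 and B2) with 88.1%, *Sox5* and *Sox13* (subgroup D) with 85.2%, and *Sox17* and *Sox18* (subgroup F) with 84.3%. The least alike were *Sox6* and *Sox18*, with 55.7%. Between whole transcripts, the longest identical run was 48 bases (*Sox4* and *Sox11*) and the next 38 bases (*Sox2* and *Sox21*), so that reads confined to such a run could be divided between the pair.

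In the molar epithelium *Sox21* had the highest level of the family. It lies on chromosome 14 of GRCm38 (118233232 to 118237030, reverse strand) and its longest transcript has 1 exon. Its level was 66.8, 81.3 and 57.5 TPM in control, against 59.1, 62.4 and 93.3 TPM in cKO. It was above every other Sox gene in each of the 6 libraries.

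*Sox4* (chromosome 13, 28948919 to 28953713) followed, at 43.4, 43.6 and 29.9 TPM in control, against 27.2, 33.5 and 33.3 TPM in cKO. *Sox13* (chromosome 1, 133382303 to 133424377) was at 23.8, 30.2 and 30.5 TPM in control, against 17.7, 13.4 and 28.6 TPM in cKO. *Sox9* (chromosome 11, 112782224 to 112787760) was at 20.4, 22.6 and 22.8 TPM in control, against 15.3, 15.9 and 24.6 TPM in cKO. Neighbours in this order were close: *Sox4* was above *Sox13* in 5 of 6 libraries, *Sox13* above *Sox9* in 5 of 6, and *Sox9* above *Sox12*, a subgroup C gene outside the 10, in 5 of 6.

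*Sox18* (chromosome 2, 181669836 to 181671640), *Sox17* (chromosome 1, 4490931 to 4497354) and *Sox11* (chromosome 12, 27334264 to 27342574) formed a lower tier. *Sox11* was at 5.46, 8.50 and 2.68 TPM in control, against 5.90, 7.09 and 3.43 TPM in cKO, and the values of the endothelial pair are given below with their markers. *Sox12* was above *Sox18* in all 6 libraries, whereas *Sox18* was above *Sox17* in 5 and *Sox17* above *Sox11* in 4, so these 3 were not separated by their spread. *Sox11* was in turn above *Sox6* in all 6.

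*Sox6*, *Sox5* and *Sox2* were lowest. *Sox6* (chromosome 7, 115470872 to 116038796) was at 3.13, 2.40 and 1.68 TPM in control, against 0.63, 1.76 and 1.71 TPM in cKO. *Sox2* (chromosome 3, 34650405 to 34652461), the stem cell marker, was at 0.57, 0.66 and 0.23 TPM in control, against 0.75, 0.69 and 0.33 TPM in cKO. *Sox2* was thus below 1 TPM in every library. Among other markers of dental progenitors, *Lgr5* was at 0.17 to 0.53 TPM and *Bmi1* at 10.1 to 24.1 TPM.

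*Sox5* (chromosome 6, 143828425 to 144781977) depended on 1 library. It was at 4.56 TPM in control replicate 1, but at 0.43 and 0.13 TPM in the other controls and at 0.47, 0.64 and 0.19 TPM in cKO, and the high value was 7.13 times the next highest. Without control replicate 1 the control mean was 0.28 TPM, against 0.433 TPM in cKO, and the gene no longer reached the mean of 1 TPM needed for a test.

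**Figure D1:**
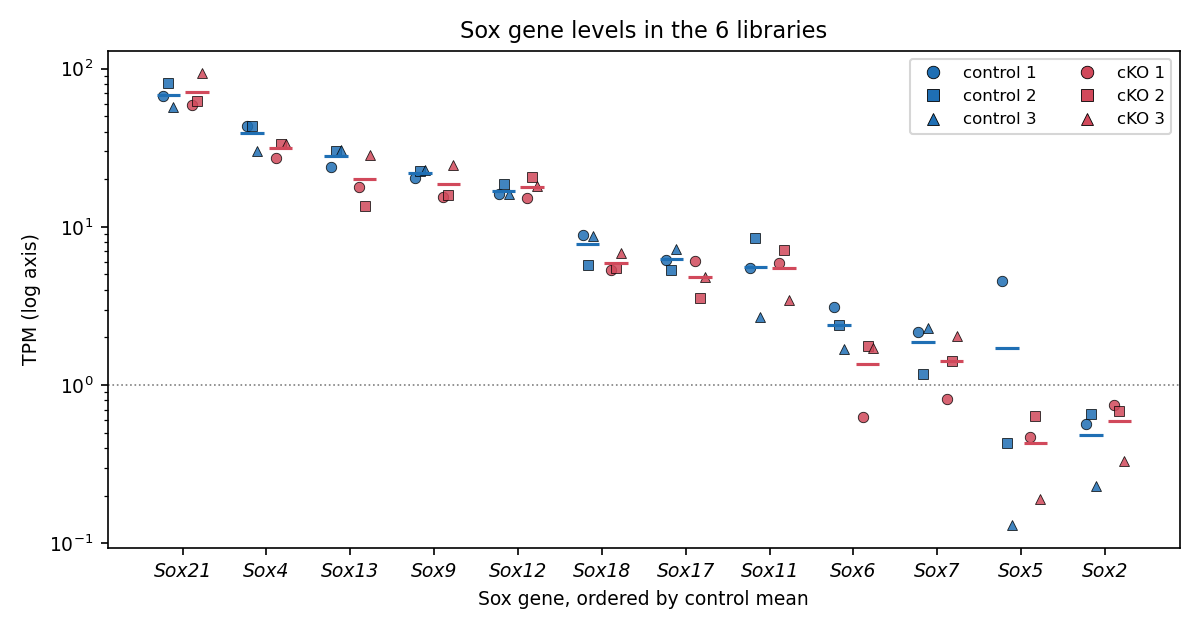
TPM (log axis) of the 10 Sox genes and of Sox7 and Sox12 in each library, ordered by control mean; symbols mark the replicate, colors the group, bars the group means, and the dotted line 1 TPM. Sox21 is highest throughout, Sox2 is below 1 TPM in all 6 libraries, and Sox5 is above 1 TPM only in control replicate 1.

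Of the family members outside the 10, *Sox12* (15.1 to 20.5 TPM) and *Sox7* (0.82 to 2.28 TPM), a subgroup F gene, were tested. The other 8 had means below 1 TPM. *Sox10*, a gene of Schwann and neural crest cells, was at 0.06 to 0.14 TPM, while the Schwann markers *Foxd3* and *Cdh19* were also near 0 (at most 0.06 TPM) and *Mbp* was at 11.6 to 20.9 TPM. *Sox14* and *Sry* were listed at 0 in every library. Of 9 noncoding genes named after a Sox gene, 7 were listed at 0 in every library, among them all 5 opposite-strand genes of *Sox5*. The overlapping transcript of *Sox2*, *Sox2ot*, whose locus on the same strand of chromosome 3 (34104270 to 34682619) contains *Sox2*, was at 0 to 0.32 TPM, and reads in the shared stretch cannot be assigned with certainty.

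The family was then summed by subgroup. The 20 genes together gave 202, 221 and 180 TPM in control, against 155, 167 and 218 TPM in cKO, with overlap. Subgroup B2, which is *Sox21* because *Sox14* was at 0, made up 33.9% ± 2.49 (SD, n = 3) of this sum in control and 39.4% ± 2.94 (SD, n = 3) in cKO. Subgroup D made up 16.1% ± 1.58 (SD, n = 3) in control and 11.9% ± 2.27 (SD, n = 3) in cKO.

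For neither share did the groups overlap (exact permutation test, two-sided, p = 0.1 each, the smallest p that 3 against 3 allow, and 0.4 after Benjamini-Hochberg adjustment over the 12 subgroup comparisons). The summed level of subgroup D (*Sox5*, *Sox6*, *Sox13*) was 31.5, 33.0 and 32.3 TPM in control, against 18.8, 15.8 and 30.5 TPM in cKO, again without overlap (exact permutation p = 0.1, adjusted 0.4). The highest cKO library lay just below the lowest control library, and the separation rested on the high *Sox5* of control replicate 1. Without *Sox5*, an alternative chosen after seeing the data, the sums were 26.9, 32.6 and 32.2 TPM in control, against 18.4, 15.2 and 30.3 TPM in cKO, and the groups overlapped both for the sum and for the share (exact permutation p = 0.2 each). The sums of the other 5 subgroups overlapped between the groups, with exact permutation p from 0.2 to 0.8, and the subgroups were formed after the values had been seen.

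**Figure D2:**
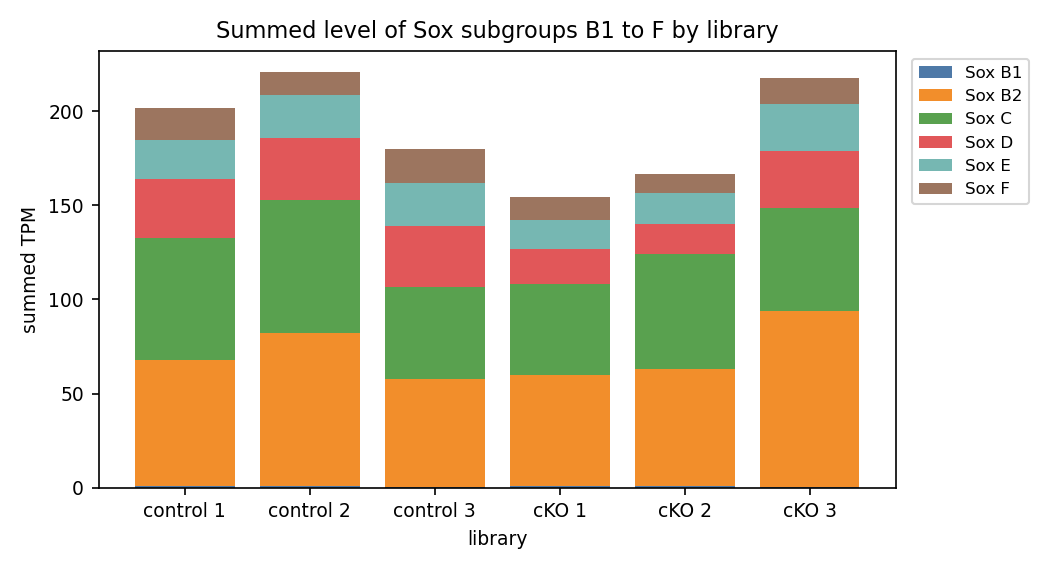
Summed TPM of the Sox subgroups B1, B2, C, D, E and F in each library, stacked from the axis upward. Subgroup B2, which is Sox21, is the largest part in all 6 libraries (62.4 against 61.1 TPM for subgroup C in cKO replicate 2), and subgroup D is 18.8 and 15.8 TPM in cKO replicates 1 and 2 against 30.5 to 33.0 TPM in the other libraries.

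Which Sox genes differed between cKO and control epithelium was asked next. None of the 9 tested genes had an adjusted p below 0.05 (limma, Benjamini-Hochberg over all genes; each adjusted p was 1.00), in a table where 2 of 13719 genes did (0.0146%). By the criteria named in the methods, over 20% difference in the means with an unadjusted p under 0.05, 0 of the 9 were called, against 2.47% of all tested genes called lower and 1.55% called higher in cKO. The groups overlapped for all 10 genes, whereas 9.64% of the tested genes had no overlap. The direction was lower in cKO for 7 of the 9, against 60.3% of all tested genes, and the median difference was -0.33 on the log2 scale, against -0.07 over all tested genes. Without *Sox5*, which was tested only through its 1 high control library, 6 of 8 were lower, with a median of -0.31.

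The estimates stand with wide intervals, and a p above the threshold does not show that the levels were equal. For *Sox21* the difference was 0.05 (standard error 0.23) on the log2 scale, and the 95% interval ran from 0.713-fold to 1.49-fold of the control. For *Sox4* it was -0.29 (standard error 0.20), with an interval from 0.587-fold to 1.14-fold and an unadjusted p of 0.193 from limma. With 1 library left out, the *Sox4* difference ran from -0.47 without control replicate 3 (unadjusted p = 0.0418, adjusted p = 0.591 from limma), where the median of all genes was -0.18, to -0.20 without cKO replicate 1 (unadjusted p = 0.428). For *Sox9* it was -0.26 (standard error 0.22), with an interval from 0.588-fold to 1.19-fold and an unadjusted p of 0.277.

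*Sox13* had the smallest unadjusted p of the 9, 0.097 from limma, the control mean being 28.2 ± 3.79 TPM (SD, n = 3) and the cKO mean 19.9 ± 7.83 TPM (SD, n = 3). Its difference of -0.54 (standard error 0.28) on the log2 scale had an interval from 0.437-fold to 1.09-fold. With the replicate number as a block, *Sox13* met the criteria of the methods (unadjusted p = 0.0424, adjusted p = 0.519, limma). After a correction for transcript length and GC content as well, its unadjusted p was 0.121 (limma). *Sox13* and *Sox9* shared a pattern: cKO replicates 1 and 2 were below every control library for both genes, while cKO replicate 3 was within the control range for *Sox13* and above it for *Sox9*. Without cKO replicate 3 the differences were -0.82 (unadjusted p = 0.00999) and -0.46 (unadjusted p = 0.0473) from limma, with adjusted p of 0.643 and 0.730. Other libraries moved them toward 0, since *Sox13* was at -0.30 without cKO replicate 2 (unadjusted p = 0.300 from limma) and *Sox9* at -0.14 without cKO replicate 1 (unadjusted p = 0.586).

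Among the less abundant genes, *Sox6* differed by -0.54 (standard error 0.32, unadjusted p = 0.132 from limma), and its groups overlapped by control replicate 3. The *Sox6* difference ran from -0.70 without control replicate 3 to -0.29 without cKO replicate 1. With a pseudocount of 0.1 in place of 1 it was -0.85 (unadjusted p = 0.135 from limma). *Sox5* differed by -0.55 with the largest standard error, 0.60, beside the single high control library, and ran from -0.99 without control replicate 3 to -0.42 without cKO replicate 3. That range holds no fit without control replicate 1, where the control mean (0.28 TPM) was below the cKO mean (0.433 TPM). *Sox11* differed by 0.04 (standard error 0.40), and its interval, from 0.539-fold to 1.97-fold, left either direction possible. *Sox2*, tested only in a fit without a minimum level, differed by 0.10 (standard error 0.18, unadjusted p = 0.604 from limma).

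Long transcripts were lower in cKO in general (Spearman's rho of -0.48 between length and difference over 12188 coding genes, a description, since genes are no independent replicates), and several Sox transcripts are long, with 8668 bases for *Sox6*, 8311 for *Sox11* and 7243 for *Sox5*. After each library was corrected for transcript length and GC content, the difference of *Sox4* was -0.09, of *Sox6* -0.28 and of *Sox9* -0.12, each closer to 0. With it, *Sox5* moved from -0.55 to -0.33 and *Sox17* from -0.33 to -0.23. *Sox18*, with the shortest transcript of the 10 (1620 bases), differed by -0.34 without and -0.35 with the correction, and *Sox13* by -0.54 and -0.38. *Sox11* and *Sox21* were at 0.31 and 0.21 after it.

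**Figure D3:**
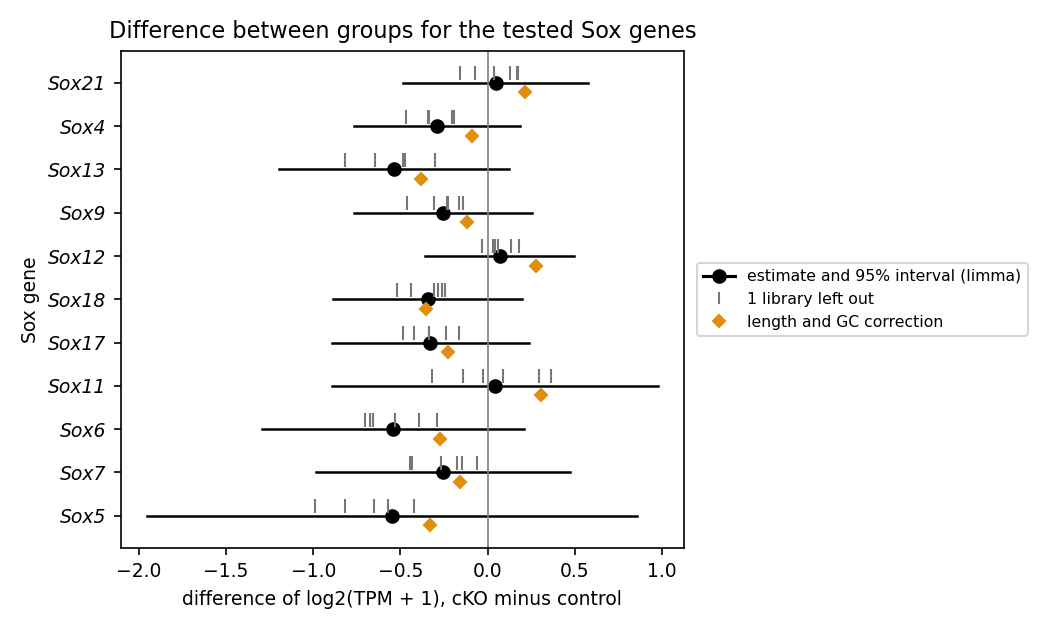
Difference of log2(TPM + 1), cKO minus control, for the 9 tested members and Sox7 and Sox12. Black points and lines give the limma estimate and its 95% interval, grey ticks the estimates with 1 library left out, and orange diamonds the estimate corrected for length and GC. Sox5 has no tick without control replicate 1. Every interval includes 0, and the ticks of Sox11, Sox12 and Sox21 fall on both sides of 0.

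The endothelial members were compared with the endothelial markers. *Sox18* was at 8.92, 5.77 and 8.73 TPM in control, against 5.30, 5.52 and 6.80 TPM in cKO, and *Sox17* was at 6.18, 5.37 and 7.21 TPM in control, against 6.12, 3.57 and 4.81 TPM in cKO. Their differences were -0.34 (standard error 0.23, unadjusted p = 0.180) and -0.33 (standard error 0.24, unadjusted p = 0.211) from limma. With 1 library left out, *Sox18* ran from -0.52 (without control replicate 2) to -0.25 (without control replicate 1), and *Sox17* from -0.49 (without cKO replicate 1) to -0.17 (without cKO replicate 2). Both groups overlapped for each gene.

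All 12 endothelial markers had negative differences (60.3% of all tested genes did), with a median of -0.48 (-0.07 over all tested genes), and 3 of the 12 were called lower by the criteria of the methods (2.47% of all tested genes): *Cdh5*, the endothelial cadherin (-0.77, unadjusted p = 0.0288 from limma), *Tek*, an angiopoietin receptor (-0.54, unadjusted p = 0.0458), and *Erg*, an endothelial transcription factor (-0.61, unadjusted p = 0.0313). Each had an adjusted p of 1.00. The 12 markers summed to 238, 173 and 240 TPM in control, against 149, 160 and 190 TPM in cKO, with overlap (exact permutation p = 0.2), and the most abundant was *Egfl7*. None of the 12 was at 0.

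Over the 6 libraries, *Sox18* followed these markers closely (Pearson r = 0.98 with their mean on the log2 scale), *Sox7* less so (r = 0.88) and *Sox17* least (r = 0.58). *Sox17* had a higher r with the ameloblast markers (0.69), the erythroid markers (0.62) and the *Amelx* share of all TPM (0.88). Expressed against the summed endothelial markers, *Sox18* was 3.75%, 3.34% and 3.64% in control and 3.55%, 3.46% and 3.58% in cKO, a mean of 3.57% ± 0.212 (SD, n = 3) against 3.53% ± 0.0623 (SD, n = 3), with an exact permutation p of 0.8. *Sox18* thus stayed between 3.34% and 3.75% of the sum of these chosen markers. Its ratios to single endothelial markers were not compared. *Sox17* was 2.60% to 3.11% in the control but 2.24% to 4.10% in cKO, where replicate 1 was high and replicate 2 low. *Sox18* also ran with the erythroid markers (r = 0.86) and the immune markers (r = 0.82), and against the summed rRNA (r = -0.85 on the log2 scale). The r with rRNA was also negative for *Sox6* (-0.77), *Sox7* (-0.67), *Sox13* (-0.64), *Sox4* (-0.61), *Sox9* (-0.60), *Sox17* (-0.57) and *Sox5* (-0.50). It was positive for *Sox2* (0.42), *Sox12* (0.24), *Sox11* (0.23) and *Sox21* (0.02). The erythroid markers summed to 1761, 1326 and 1978 TPM in control, against 1228, 1282 and 1161 TPM in cKO, without overlap (exact permutation p = 0.1). The part of endothelial content or of rRNA in these results was not tested, and the correlations describe 6 libraries that share their group and their composition.

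The other members were set against the marker lists in the same way. *Sox13* and *Sox9* ran with each other (r = 0.93) and with the 10 ameloblast markers (r = 0.94 and 0.84). Those markers summed to 207339, 200922 and 240114 TPM in control, against 191820, 96866 and 209489 TPM in cKO, *Amelx* being the most abundant, and cKO replicate 2, with the smallest sum, had the lowest *Sox13*. Of the 10 ameloblast markers 8 had negative differences, against 60.3% of all tested genes, and 0 were called, against 2.47% called lower and 1.55% higher. *Sox21* ran less closely with that list (r = 0.46), although cKO replicate 3 was the highest library both for *Sox21* and for the mean of the ameloblast markers on the log2 scale.

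*Sox2* and *Sox11* also ran together (r = 0.92), and both were lowest in the replicate 3 libraries of the control and the cKO. Their r with the 5 odontoblast markers was 0.85 and 0.77, with the other HMG-box genes 0.74 and 0.92, and with the number of genes above 0 in a library 0.92 for each. It was 0.70 and 0.68 with the mesenchymal markers, and 0.60 and 0.81 with the Schwann markers. With *Ctnnb1* and the TCF/LEF genes, described below, it was 0.64 and 0.82. The r of *Sox2* rests on values of 0.23 to 0.75 TPM. *Sox11* had r above 0.9 with 1179 of 7037 protein-coding genes at or above 10 TPM, so that its pattern was a common one, and the closest were *Zfr* and *Ccdc66*. *Sox17*, in contrast, had 0 such genes, and *Sox21* had 9, with *Hadhb* the closest (r = 0.97).

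*Sox4* and *Sox6* ran with each other (r = 0.90) and with the 10 markers of dental epithelium (r = 0.83 and 0.93), and *Sox4* as closely with the dental progenitor genes (r = 0.85). Of the epithelial markers 8 of 10 had negative differences (60.3% of all tested genes did), and 1 was called (2.47% of all tested genes were called lower): *Dsp*, which encodes desmoplakin, was lower in cKO (-0.69, unadjusted p = 0.0302 and adjusted p = 1.00 from limma). The genes most like *Sox4* were *Tgoln1* and *Snrk* (r = 0.99 each), and 348 of 7036 genes had r above 0.9. Those most like *Sox9* were *Tuba4a* and *Lbh* (r = 0.996 and 0.994), and 134 of 7036 had r above 0.9. Each is the highest of many r over 6 libraries, and so large by selection. For *Sox5* the closest was *Vit* (r = 0.97), and only 12 genes had r above 0.9.

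**Figure D4:**
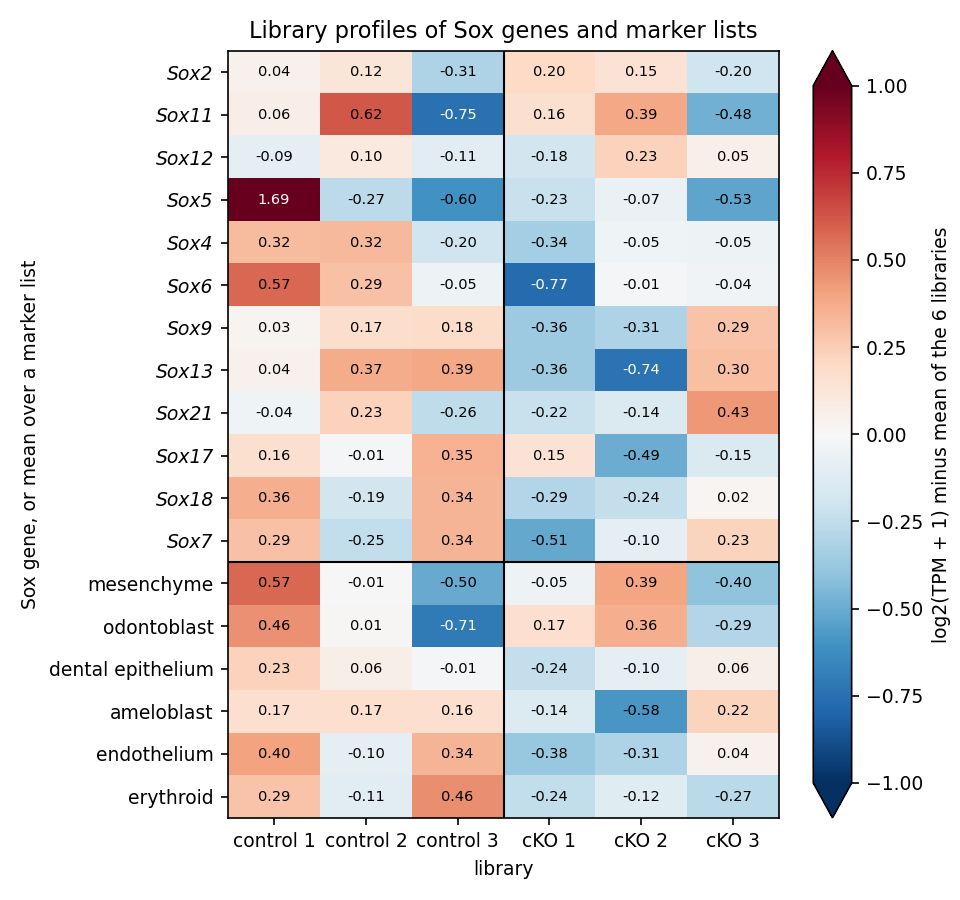
Deviation of log2(TPM + 1) from its mean over the 6 libraries, for 12 Sox genes and for the mean over 6 marker lists. Sox18 and Sox7 vary with the endothelial list, Sox9 and Sox13 with the ameloblast list, Sox2 and Sox11 are lowest in the replicate 3 libraries, and Sox5 stands out in control replicate 1.

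Cartilage genes, which *Sox9*, *Sox5* and *Sox6* activate in chondrocytes, were set beside those members. Of the 12 cartilage matrix genes, 7 had a mean below 1 TPM, among them *Acan* and *Col9a1*, and *Matn1* and *Snorc* were listed at 0 in every library. *Col2a1* was at 0.58 to 1.69 TPM. The list was carried by *Col9a3* (166 to 211 TPM) and *Col11a2* (92.7 to 148 TPM), while *Col9a2* was at 5.63 to 10.5 TPM and *Hapln1* at 1.07 to 3.33 TPM. Of the 5 tested genes 3 had negative differences and 0 were called, where 2.47% of all tested genes were called lower and 1.55% higher.

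The TCF/LEF factors, which carry an HMG box and act with beta-catenin in Wnt signaling, were compared last. *Ctnnb1*, which encodes beta-catenin, and the TCF/LEF genes had differences with a median of -0.01 (-0.07 over all tested genes), and 0 of the 5 were called, which at 2.47% called lower and 1.55% higher among all tested genes is no result about the list. *Ctnnb1* was at 830 to 1350 TPM, *Tcf7* at 13.9 to 17.03 TPM and *Lef1* at 2.82 to 3.41 TPM. Of 17 tested genes among 18 other HMG-box genes, of which the chromatin protein gene *Hmgb1* was the most abundant, 10 had negative differences (58.8%, near the 60.3% of all tested genes) and 0 were called. Of 11 tested dental progenitor genes, *Igfbp5* being the most abundant, 10 had negative differences (90.9%, against 60.3% of all tested genes) with a median of -0.32 (-0.07 over all tested genes), and 0 were called, against 2.47% of all tested genes called lower and 1.55% higher. Among the remaining lists, *Bglap*, which encodes osteocalcin, was called higher (0.82, unadjusted p = 0.0128 from limma) among the 5 odontoblast markers, and the globin gene *Hbb-bs* lower (-0.43, unadjusted p = 0.0323 from limma) among the 5 tested erythroid markers, both with an adjusted p of 1.00. All 5 tested immune and all 5 tested erythroid markers had negative differences (60.3% of all tested genes did), with medians of -0.25 and -0.43. Of the tested mesenchymal, Schwann and odontoblast markers, 7 of 12, 3 of 5 and 2 of 5 did. None of the 12 mesenchymal, 5 Schwann and 5 immune markers tested was called. These counts stand beside 2.47% of all tested genes called lower and 1.55% called higher.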

How the data were processed

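RNA of dental epithelium was sequenced in 6 libraries, and samples were grouped by their titles. The authors used SeqPrep and Sickle for trimming, HISAT2 for alignment and RSEM for quantification; the submitters' processing notes name HISAT2 and StringTie. The genome build is not given in the sources used here. The deposited TPM keep no depth, although the methods name FPKM, so no counting error can be given and precision rests on 3 libraries a group. Gene types, positions, transcript lengths and sequences are from GENCODE M21 (GRCm38), which holds 99.4% of the identifiers.

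Here, log2(TPM + 1) was fitted with limma 3.58.1 in R 4.3.3 (mean-variance trend, no block) for the 13719 genes whose mean over the libraries reached 1 TPM, with Benjamini-Hochberg adjustment over all of them. The fit was tested on simulated data with noise drawn independently for each gene, and known changes were added only to genes above a minimum level. Such data lack the differences in composition and rRNA that genes of a library share, so the fit was not tested under them. Single values were compared by two-sided exact permutation. Correlations over libraries are Pearson's r of log2(TPM + 1), without tests. For the correction, each library's deviations were fitted with natural splines (4 degrees of freedom) of transcript length and GC content.

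The members, the 15 gene lists and the alternatives were chosen with earlier results of these data known. Named genes are the members, the most abundant and the called genes of each list and the genes most correlated with a member; *Krt14*, *Postn*, *Lum*, *Lgr5*, *Bmi1*, *Foxd3*, *Cdh19*, *Tcf7*, *Lef1*, *Acan*, *Col9a1*, *Col2a1*, *Col9a2*, *Col11a2*, *Hapln1*, *Matn1* and *Snorc* were chosen after their values were seen. Protein sequences were not used here.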

Additional observations from a re-analysis of the deposited data

How the results depend on the processing

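The reported differences come from a fit with no block, and 16 alternatives were run; the one planned for counts was not run because the table holds TPM. Of the 143 differences of the Sox members under these alternatives, 7 changed direction (*Sox11* and *Sox21*), 5 had an unadjusted p below 0.05 and 0 had an adjusted p below it (limma, or Student's test for 1 setting; adjusted p from 0.519 to 1.00). Their reported differences were near 0: *Sox11* was -0.016 with Student's test on the TPM and ran from -0.32 to 0.36 when 1 library was left out, *Sox21* was -0.0026 after coding genes other than *Amelx* and *Ambn* were rescaled to a common sum and ran from -0.16 to 0.17. The 143 hold no difference of *Sox5* without control replicate 1, where its control mean (0.28 TPM) was below its cKO mean (0.433 TPM). *Sox12*, outside the 10, ran from -0.031 to 0.18 when 1 library was left out. It was at 0.28 after the length and GC correction (unadjusted p = 0.0522 from limma). With the replicate block as well, its unadjusted p was 0.0429 (adjusted p = 0.586, limma).

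Of the Sox members, 0 met the criteria of the methods (0 also by Student's test), and 0 to 2 did when 1 library was left out: *Sox4* without control replicate 3 (-0.47, unadjusted p = 0.0418 from limma, where the median of all genes was -0.18), and *Sox9* and *Sox13* without cKO replicate 3. With the replicate number as a block it was 1, *Sox13* (unadjusted p = 0.0424 from limma), and with the replicate block and the length and GC correction 1, *Sox18* (unadjusted p = 0.0370). The deviations of same-numbered libraries had correlations of -0.08, 0.29 and 0.40. The study's methods speak of pairs of replicates, and so few correlations cannot decide whether the numbers mark these pairs. The reported fit took no pairing, and the fit with the replicate block is given beside it.

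Genes whose adjusted p was below 0.05, 2 in the reported fit, numbered 4 with a pseudocount of 0.1, with quantile normalization and with the replicate block, 1 without the filter and with block and correction together, 0 after rescaling (756 with an unadjusted p below 0.05) and 0 with Student's test (544), and 2 to 9 with 1 library left out. The number under the criteria of the methods, 552, was 940 without the filter, 1315 with the block, 1110 with block and correction, and 195 (without cKO replicate 1) to 1152 (without control replicate 3) with 1 library left out. The cause of these differences was not tested.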
